A study of Macaca mulatta with 12 samples.

Results

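TBX21, ZEB2, TOX, TOX2 and SOX5 encode 5 transcription factors that are known from atypical memory B cells, and their levels are described here across the B cell subtypes and heavy chain classes of rhesus macaque blood. The genes were taken by name from the deposited table, where they are 5 of 22584 listed genes, and all 5 were present. The study profiled blood mononuclear cells of 6 juvenile rhesus macaques (Macaca mulatta) with Indian ancestry that were healthy and unmanipulated (2 males and 4 females, aged 2 to 3 years), with a 5' single-cell expression library and a B cell receptor (BCR) library from each. All animals were sedated with ketamine, some also with dexmedetomidine, for a draw from the femoral vein. The 2 males formed batch 1 and the 4 females batch 2, so that sex and batch cannot be told apart. Animals are named by sex and replicate number, and the sample of each is a separate animal.

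T-bet, the product of TBX21, is a T-box factor induced in B cells by interferon gamma together with Toll-like receptor and antigen receptor signals. It is often expressed in CD11c+ B cells in infection and autoimmunity. ZEB2 is a zinc finger repressor that acts with T-bet in lymphocytes and is required for CD11c+ atypical B cells. TOX and TOX2 are related HMG-box factors best known from T follicular helper cells and exhausted T cells, and SOX5 is an HMG-box factor that marks atypical memory B cells and restrains their proliferation. Atypical memory cells typically carry CD11c (the product of ITGAX) and lack CD21 (the product of CR2).

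The table held 13849 cells, of which 13324 were B cells of 12 annotated subtypes and 525 were annotated by the authors as contamination. The animals gave 563 (female 4) to 3048 (female 3) B cells each, with a median of 3865 (male 2) to 6727 (female 2) unique molecular identifiers (UMIs) in a cell. In all cells together 1641 UMIs of TBX21, 30994 of ZEB2, 8755 of TOX, 12768 of TOX2 and 32154 of SOX5 were counted. TBX21 values therefore carry the most counting error of the 5. Across libraries 96 cell barcodes recurred, in 193 cells.

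The names of the CD11c+ subtypes were checked against markers. After each cell was thinned to 2000 UMIs, ITGAX was detected in 66.2% ± 11.9 (SD, n = 6 animals) of CD11c+ MBC 1 cells and 71.2% ± 11.96 of CD11c+ MBC 2 cells, against 1.41% ± 0.698 of Naive B cells 1. CR2 was detected in 0.0673% ± 0.108 of CD11c+ MBC 1 cells, in 0 of 1525 CD11c+ MBC 2 cells and in 11.7% ± 3.95 of Naive B cells 1. The B cell markers (6 of 6 in the table) summed to 4743 ± 860 CPM (the UMIs of a gene scaled to a common library total) in CD11c+ MBC 1 and 3723 ± 522 CPM in CD11c+ MBC 2. Markers of dendritic cells, which also carry CD11c, summed to 516 (range 148 to 982) and 566 (190 to 940) CPM there, against 136 (34.1 to 303) in Naive B cells 1. CLEC10A and CLEC9A, which define dendritic cells, were at 0 in all 3 subtypes, and FLT3 also in CD11c+ MBC 2. The other listed markers in the table, ZBTB46, BATF3, CLEC4C and CD1C, were above 0 in both CD11c+ subtypes. CD1C alone averaged 359 CPM in unswitched and 354 CPM in switched cells of the memory subtypes. Monocyte markers summed to 94.8, 81.3 and 37.2 CPM in the same order. T cell markers summed to 150 and 176 CPM in CD11c+ MBC 1 and 2, to 133 CPM in Naive B cells 1 and to 1086 CPM in the cells annotated as contamination. NK cell markers, a cell type that also expresses TBX21 and ZEB2, summed to 144 and 205 CPM in CD11c+ MBC 1 and 2, and to 61.0 and 1239 CPM in Naive B cells 1 and the contamination. The comparisons of classes were repeated without the 4991 B cells that held a UMI of 11 defining T cell, NK cell and monocyte markers. Levels were also recomputed without marker-bearing cells in CD11c+ MBC 1 and 2, C-MBC 1 and 2, M-MBC 1 and Naive B cells 1. Their means stayed within 1 SD of those below. The 11 markers hold no dendritic cell gene, and the part of dendritic cells in the levels was not tested.

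Levels by subtype are means over animals of CPM in the summed cells of an animal, with at least 10 cells per sum. Because the subtype annotation rests on the expression of these cells, differences between subtypes are a description with no test. Of the 12 subtypes 3 stand apart in RNA composition: ribosomal protein genes gave 3.91% ± 2.78 of UMIs in Naive B cells 2, 5.74% ± 4.14 in Naive B cells 3 and 4.11% ± 2.90 in antibody-secreting cells, against 21.2% ± 2.33 in Naive B cells 1. Mitochondrial genes gave 4.27% ± 1.23, 4.20% ± 0.831 and 4.05% ± 0.698 against 2.499% ± 0.688. CPM is a share of a total that includes ribosomal protein genes. Other genes can therefore have a higher CPM in these 3 subtypes at an equal share of the remaining RNA. Their levels of the 5 factors are given apart.

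TBX21 had its highest means in the CD11c+ subtypes. Its level was 40.0 ± 24.9 CPM in CD11c+ MBC 2 (lowest 15.95, median 35.0, highest 87.4 over 6 animals) and 34.1 ± 15.8 CPM in CD11c+ MBC 1 (20.04, 31.6 and 63.2). It was 1.98 ± 1.44 CPM in Naive B cells 1, from 0 to 4.40, where only 14 UMIs were counted in 1614 cells. The animals' ranges in Naive B cells 1 and in either CD11c+ subtype did not overlap, and female 1 was highest in both CD11c+ subtypes. C-MBC 1 (26.4 ± 11.3 CPM), M-MBC 2 (23.6 ± 7.02) and M-MBC 1 (20.5 ± 5.91) followed, and the within-animal differences between these 3 neighbours were smaller than their SD over animals. C-MBC 1 ran from 14.9 to 40.6 CPM and overlapped both CD11c+ subtypes. CD11c+ MBC 2 exceeded it by a log2 difference of 0.50 ± 0.51, in 4 of 6 animals, and CD11c+ MBC 1 by 0.36 ± 0.25, in 5 of 6. The 2 subtypes named C-MBC were unlike: C-MBC 2 held 4.17 ± 4.20 CPM of TBX21, with 2 of 6 animals at 0. On the log2(CPM + 1) scale C-MBC 1 exceeded C-MBC 2 by 2.85 ± 1.44, in 6 of 6 animals.

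ZEB2 was present in every subtype. It stood at 569 ± 164 CPM in CD11c+ MBC 2, 519 ± 127 in C-MBC 1, 518 ± 91.2 in M-MBC 2, 505 ± 139 in CD11c+ MBC 1 and 481 ± 161 in Activated B cells. No neighbouring pair in that series differed by more than its SD over animals, although CD11c+ MBC 2 exceeded CD11c+ MBC 1 in 5 of 6 animals (log2 difference 0.16 ± 0.13). Its level in Naive B cells 1 was 243 ± 69.7 CPM (143, 242 and 337). CD11c+ MBC 1 exceeded Naive B cells 1 by 1.06 ± 0.51 on the log2 scale, in 6 of 6 animals. C-MBC 2 lay below Naive B cells 1 in 6 of 6 animals, at 153 ± 39.6 CPM (103, 151 and 209), a log2 difference of -0.66 ± 0.26.

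TOX had an order of its own. It was 233 ± 140 CPM in CD11c+ MBC 2, 192 ± 93.6 in C-MBC 1, 162 ± 110 in CD11c+ MBC 1 and 154 ± 76.0 in C-MBC 2, with antibody-secreting cells between them. CD11c+ MBC 2 and C-MBC 1 did not differ beyond their SD (0.19 ± 0.28), nor did CD11c+ MBC 1 and C-MBC 2 (-0.08 ± 0.47), but CD11c+ MBC 2 exceeded CD11c+ MBC 1 in 6 of 6 animals (0.63 ± 0.32). C-MBC 2 and M-MZL BC, the memory subtypes with the lowest means of TBX21, TOX2 and SOX5, were unlike in TOX: M-MZL BC held 14.8 ± 8.06 CPM of TOX (lowest 5.85, median 14.9, highest 24.3). The next subtype, M-MBC 1, was at 58.9 ± 37.7 CPM, below C-MBC 2 by a log2 difference of 1.47 ± 0.37 in 6 of 6 animals. Naive B cells 1 held 9.08 ± 5.93 CPM of TOX, and C-MBC 2 exceeded them by 3.94 ± 0.86 in 6 of 6 animals.

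Animals differed widely in TOX. In CD11c+ MBC 1 the level was 326 CPM in female 1, 248 in female 3, 158 in female 4, 135 in male 2, 73.9 in male 1 and 30.5 in female 2. Female 2 was lowest of the 6 animals in 6 of the 7 memory subtypes, and the highest was female 3 in 4 of them and female 1 in 3. Female 2 was not low throughout: it had the highest ZEB2 in 4 of the 7 memory subtypes. SOX5 was highest in female 1 in 7 of 7, and TBX21 lowest in male 1 in 5 of 7.

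TOX2 and SOX5 differed most between subtypes. TOX2 was 422 ± 69.0 CPM in CD11c+ MBC 1 (297, 428 and 497) and 414 ± 116 CPM in CD11c+ MBC 2 (278, 421 and 557), against 3.01 ± 3.35 CPM in Naive B cells 1 (0, 2.21 and 9.42). No animal of 1 set reached the range of the other, and the log2(CPM + 1) difference of CD11c+ MBC 1 from Naive B cells 1 was 7.08 ± 0.99 in 6 of 6 animals. TOX2 was lower in M-MBC 1 (131 ± 59.0), M-MBC 2 (86.8 ± 35.7) and C-MBC 1 (80.3 ± 27.5), and C-MBC 2 held 4.303 ± 3.80 CPM from 14 UMIs. CD11c+ MBC 2 exceeded C-MBC 1 in TOX2 by a log2 difference of 2.37 ± 0.49 in 6 of 6 animals, while the same pair differed by 0.12 ± 0.26 in ZEB2.

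SOX5 formed a graded series. It fell from 852 ± 275 CPM in CD11c+ MBC 2 (627, 763 and 1344) through 742 ± 225 in CD11c+ MBC 1, 530 ± 171 in M-MBC 2, 340 ± 141 in M-MBC 1 and 327 ± 52.5 in C-MBC 1 to 53.9 ± 23.5 in C-MBC 2 and 35.9 ± 20.9 in Naive B cells 1 (8.80, 33.4 and 62.9). Each of the first 3 steps differed beyond its SD within animals, and CD11c+ MBC 2 exceeded CD11c+ MBC 1 in 6 of 6 animals by a log2 difference of 0.20 ± 0.15. M-MBC 1 and C-MBC 1 did not differ beyond their SD. M-MBC 2 held more SOX5 than M-MBC 1 in 6 of 6 animals (log2 difference 0.69 ± 0.34) and less TOX2 in 6 of 6 (-0.55 ± 0.45).

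Naive B cells 2, a name used as annotated, carried high levels of 4 of the factors. By class they held 13 IgG, 52 IgM and 9 IgD cells, against 4, 1047 and 407 in Naive B cells 1. Listed genes known to be higher in atypical cells summed to 3264 ± 789 CPM, against 1362 ± 652 in Naive B cells 1. Those known to be lower summed to 4881 ± 925 against 7116 ± 1396 CPM. Whether Naive B cells 2 are naive was not tested. SOX5 was 1273 ± 577 CPM in Naive B cells 2, ZEB2 1083 ± 366, TOX2 284 ± 41.7 and TOX 255 ± 219. TBX21 was 16.9 ± 20.4 CPM from 20 UMIs. The log2 differences from Naive B cells 1 were 5.22 ± 0.75 for SOX5, 2.14 ± 0.56 for ZEB2, 6.51 ± 1.04 for TOX2 and 4.43 ± 1.76 for TOX, in 6 of 6 animals each. These cells had a median of 2571 UMIs and the low ribosomal share given above, which cannot be told apart from the subtype. Naive B cells 3, with ZEB2 at 631 ± 311 CPM (n = 4), had SOX5 at 93.3 ± 63.9 CPM and 1 UMI of TBX21 and 2 each of TOX and TOX2 in 112 cells. Antibody-secreting cells (43 cells of the 3 animals with at least 10) had no TBX21 UMI, ZEB2 at 26.9 ± 38.0 CPM and TOX at 166 ± 67.6 CPM (115, 141 and 243).

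**Figure D1:**
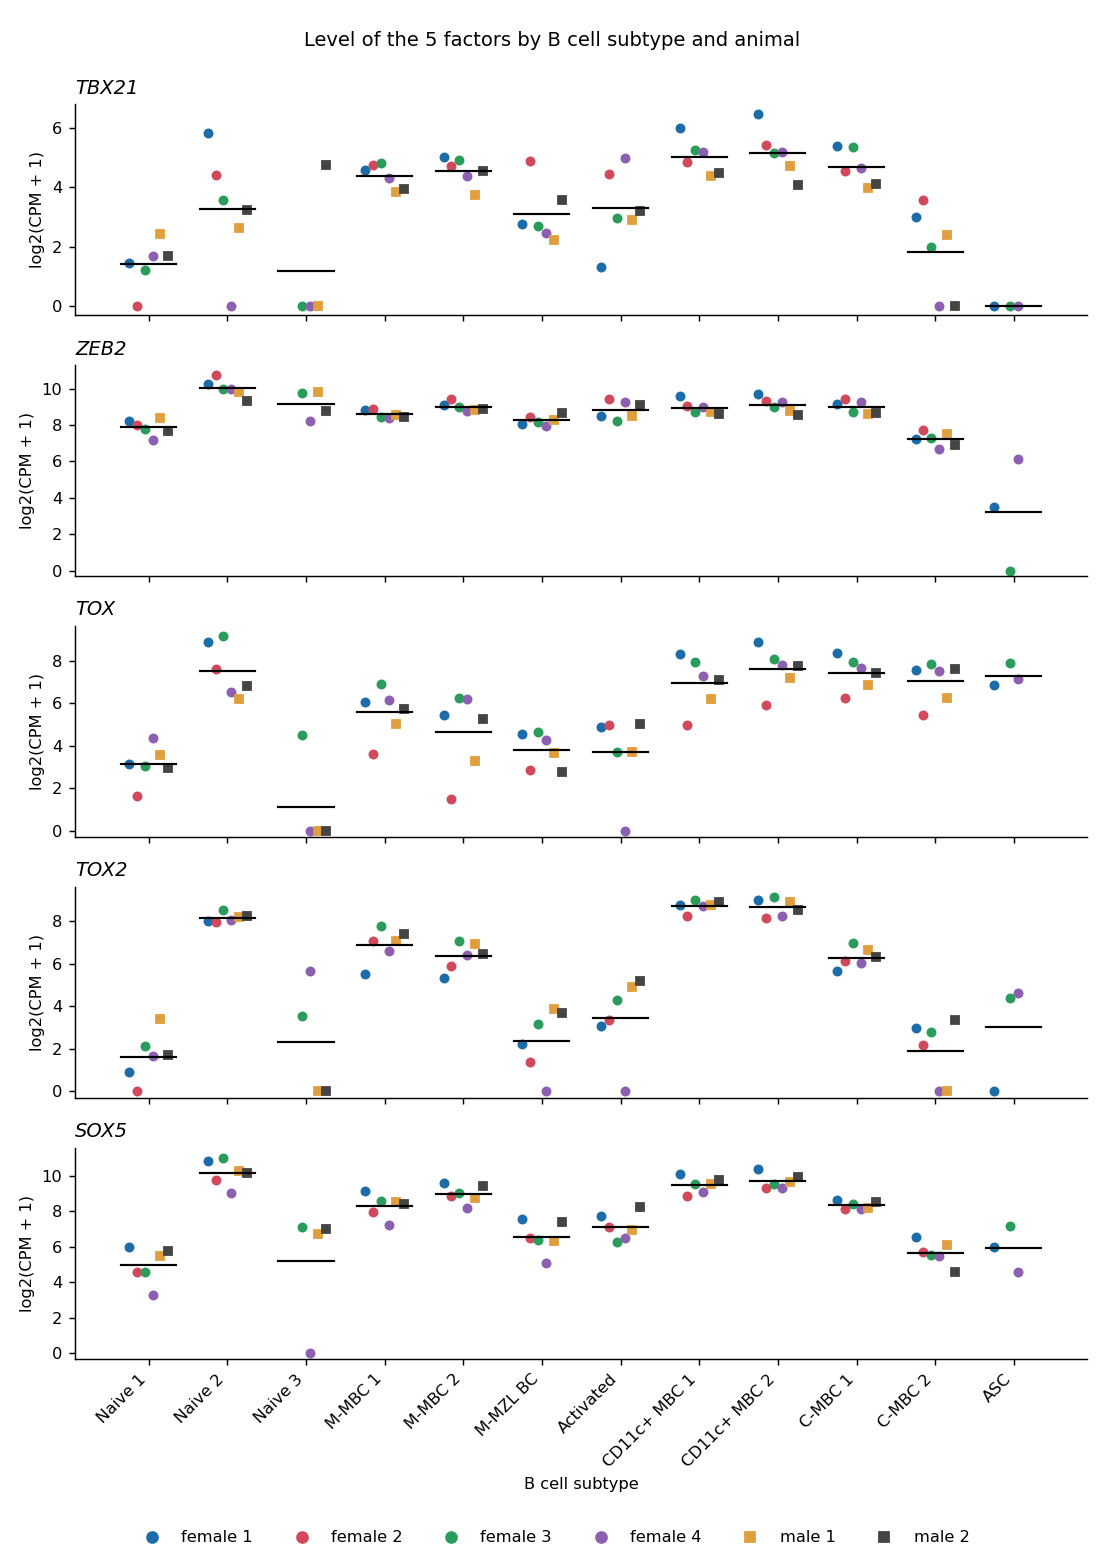
Each panel plots 1 factor; the x axis gives the B cell subtype (ASC, antibody-secreting cells) and the y axis log2(CPM + 1) in the summed cells of an animal. Points are animals (circles females, squares males) and bars the mean of the log2 values; TOX2 and SOX5 separate the CD11c+ subtypes from Naive B cells 1 most widely (7.08 and 4.53 in CD11c+ MBC 1), ZEB2 the least (1.06), and TOX in C-MBC 2 lies in the range of CD11c+ MBC 1.

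Detection per cell followed the same order at equal depth. At 2000 UMIs per cell SOX5 was detected in 67.1% ± 10.2 of CD11c+ MBC 2 cells and 3.94% ± 1.91 of Naive B cells 1 (91.4% ± 4.23 and 7.74% ± 4.43 without thinning). TOX2 was detected in 47.0% ± 9.08 and 0.292% ± 0.357, ZEB2 in 56.7% ± 8.17 and 29.6% ± 7.90, and TOX in 27.1% ± 14.8 and 1.21% ± 0.570. TBX21 was found in only 7.36% ± 4.12 of CD11c+ MBC 2 cells and 0.219% ± 0.260 of Naive B cells 1 at that depth, and in 20.6% ± 13.0 and 0.745% ± 0.479 without thinning. Median depths were 8161 UMIs in CD11c+ MBC 2 and 4087 in Naive B cells 1. A share of cells with a UMI is not a share of expressing cells, and thinning left out 467 B cells under 2000 UMIs.

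Cells with several factors were most frequent in the CD11c+ subtypes among the memory subtypes, and nearly as frequent in Naive B cells 2. UMIs of at least 3 of the 5 factors were found in 28.1% ± 12.5 of CD11c+ MBC 1 cells and 33.8% ± 14.6 of CD11c+ MBC 2 cells. The share was 10.5% ± 4.25 in C-MBC 1, 6.19% ± 3.09 in M-MBC 1, 5.81% ± 4.13 in M-MBC 2, 0.941% ± 0.921 in C-MBC 2 and 0.0341% ± 0.0835 in Naive B cells 1, where 1 of 1572 cells had them. Naive B cells 2 reached 25.9% ± 10.4. All 5 factors were detected in 6 of 2202 cells of CD11c+ MBC 1 and 7 of 1525 of CD11c+ MBC 2.

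**Figure D2:**
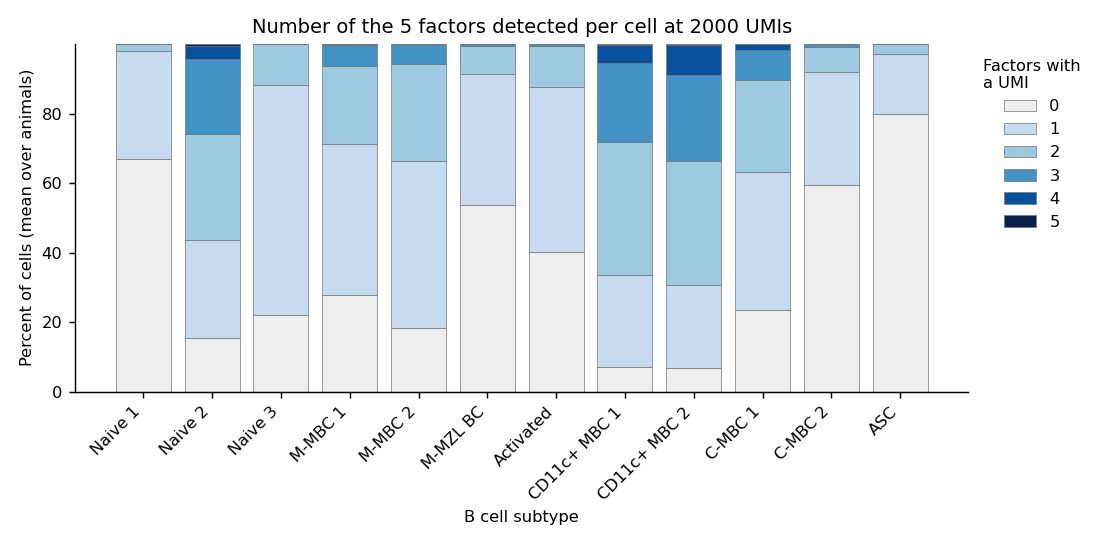
Stacked bars give, for each B cell subtype (x axis), the mean over animals of the percent of cells (y axis) with a UMI of 0 to 5 of the factors after thinning to 2000 UMIs. The dark segments, 3 or more factors, reach 28.1% and 33.8% in CD11c+ MBC 1 and 2, 25.9% in Naive B cells 2 and 0.941% in C-MBC 2.

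Within a CD11c+ subtype the factors were detected together about as often as their separate shares would give. The ratio of observed to expected co-detection in thinned cells was 0.995 ± 0.0691 for TOX2 with SOX5 in CD11c+ MBC 1 and 1.02 ± 0.00986 for SOX5 with ITGAX, each over 6 animals. Over all pairs measured in the CD11c+ subtypes its mean ran from 0.841 to 1.14. In C-MBC 1 the mean ratio ran from 1.06 (ZEB2 with TOX) to 1.61 over the 10 pairs measured. It was 1.61 ± 0.408 for TOX2 with ITGAX (5 animals), 1.42 ± 0.310 for TOX with TOX2 (3 animals), 1.38 ± 0.142 for TOX2 with SOX5 (5 animals), 1.28 ± 0.209 for TOX with ITGAX (5 animals), 1.21 ± 0.0681 for SOX5 with ITGAX (5 animals) and 1.17 ± 0.163 for ZEB2 with TOX2 (5 animals). In M-MBC 1 the mean ratio ran from 0.948 (ZEB2 with TOX) to 1.28 ± 0.137 (TOX with SOX5, 4 animals), with TOX2 and ITGAX at 1.21 ± 0.287. The ratio cannot exceed 1 divided by the larger of the 2 shares. Its upper bound is therefore low for pairs with ITGAX in the CD11c+ subtypes, where most cells held ITGAX, and subtypes are not compared like for like. These ratios are descriptive, and at these depths a cell without a UMI may still express the gene.

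Across the 12 subtypes TOX2 and SOX5 were the most alike of the 5 (Pearson r = 0.965 between mean log2(CPM + 1) values). TBX21 correlated with SOX5 at 0.836 and with TOX2 at 0.810, and TOX with ZEB2 at -0.182. Among all 8843 genes with a mean of at least 16 CPM in 1 subtype or more, the 5 genes most like TOX were EYA2 (0.955), NEDD4 (0.940), SH2D3C (0.931), MOB3B (0.924) and ZNRF1 (0.920). Those most like TBX21 were PRKAR1A and SOCS3 (both 0.957), FGR (0.953), TLR1 and MTCL2 (both 0.950), and those most like ZEB2 were FARP2 (0.979), HIPK1 (0.978), ZNF331 (0.977), BPNT2 (0.974) and PARP14 (0.973). SOX5 ranked first for TOX2, followed by SIK1, MYRF, FBXO32 and PRKX, and the genes most like SOX5 included KLHL2, TOX2, FBXO32 and PDE4A. Without Naive B cells 2 and 3 and antibody-secreting cells, over 9 subtypes, TBX21 and SOX5 reached 0.985 and TOX and ZEB2 0.190, and the 5 genes most like TOX still included EYA2, NEDD4 and MOB3B. All points share the same libraries and differ in depth and RNA composition, so these values describe the table only.

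The class of a cell was taken from the constant gene of its single productive heavy chain, known for 10293 B cells. Class switching replaces IgM and IgD by IgG, IgA or IgE, and 2380 cells were switched and 7913 unswitched. In all B cells TOX was 387, 62.8, 278 and 206 CPM in switched cells of females 1 to 4 and 126 and 218 CPM in males 1 and 2. In unswitched cells of the same animals it was 101, 11.02, 104, 18.1, 23.8 and 44.3 CPM. Every animal was higher in switched cells, although the ranges of the animals overlapped. The fitted log2 difference was 2.13 ± 0.16 (SE, n = 6; edgeR adjusted p = 2.61e-07), a 4.38-fold change. TBX21 (28.1 ± 14.3 against 17.2 ± 8.62 CPM; log2 difference 0.70 ± 0.15, edgeR adjusted p = 0.00313) was higher in 5 of 6 animals, and TOX2 (215 ± 74.5 against 132 ± 65.2 CPM; 0.73 ± 0.14, adjusted p = 0.00166) in 6 of 6. ZEB2 rose by 0.21 ± 0.07 (467 ± 122 against 401 ± 76.6 CPM; edgeR adjusted p = 0.0449). The ZEB2 call was lost without any 1 of the 4 females, where the difference ran from 0.16 to 0.20, in DESeq2 (0.21) and with immunoglobulin genes and unnamed identifiers kept (0.21). SOX5 differed by 0.20 ± 0.15 (424 ± 139 against 387 ± 182 CPM; edgeR adjusted p = 0.356), higher in 3 of 6 animals. The 4 called factors, all higher, stand beside 25.0% of 9649 genes called, 13.3% higher and 11.7% lower in switched cells.

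Without the animal as a block none of the 5 factors was called, with TOX at 2.06 (edgeR adjusted p = 0.104), TOX2 at 0.72 (adjusted p = 0.496), TBX21 at 0.73 (adjusted p = 0.491) and ZEB2 at 0.21 (adjusted p = 0.760).

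Among the memory subtypes alone TOX was again called, at 1.86 ± 0.16 (edgeR adjusted p = 1.15e-06; 215 ± 114 against 61.8 ± 52.2 CPM; higher in 6 of 6 animals). TBX21 differed by 0.50 ± 0.14 (edgeR adjusted p = 0.0243; 28.8 ± 14.4 against 20.2 ± 10.5 CPM; 4 of 6 animals higher). Its call was lost without female 1 (0.44) or female 3 (0.48), in DESeq2 (0.52) and without cells carrying markers of other cell types (0.49). Without the animal as a block neither TOX (1.80, edgeR adjusted p = 0.287) nor TBX21 (0.54, adjusted p = 1.00) was called. TOX2 (0.41 ± 0.14, edgeR adjusted p = 0.0517), ZEB2 (0.16 ± 0.07, adjusted p = 0.136) and SOX5 (-0.06 ± 0.13, adjusted p = 0.819) did not pass the threshold. In this comparison 16.4% of 9534 genes were called, 8.81% higher and 7.63% lower.

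Switched and unswitched cells shared subtypes but were spread over them in different proportions. Of 2217 IgG cells, 30.8% were CD11c+ MBC 2, 29.7% C-MBC 1 and 19.2% CD11c+ MBC 1. Of 6278 IgM cells these subtypes held 4.33%, 2.64% and 16.2%, and 18.9% were M-MBC 1. Classes were therefore also compared inside each subtype, over 27 pairs of a switched and an unswitched sum of the same animal and subtype, each pair a block of the fit. Pairs from 1 animal share that animal, so that they are not 27 independent animals.

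TOX was higher and SOX5 lower in switched than in unswitched cells of the same subtype. TOX was higher in 27 of 27 pairs (log2 difference 1.16 ± 0.11, edgeR adjusted p = 3.97e-13; 202 ± 122 against 82.5 ± 83.6 CPM over pairs). SOX5 was lower in 25 of 27 pairs (-0.49 ± 0.06, edgeR adjusted p = 1.11e-09; 449 ± 273 against 632 ± 370 CPM). In this fit 5.17% of 5049 genes were called, 2.26% higher and 2.91% lower. TBX21 (0.35 ± 0.13, edgeR adjusted p = 0.108; higher in 20 of 27), ZEB2 (0.12 ± 0.05, adjusted p = 0.184; 19 of 27) and TOX2 (0.02 ± 0.07, adjusted p = 0.966; 16 of 27) did not pass. Without cells carrying markers of other cell types the values were 0.98 for TOX and -0.54 for SOX5, and in the 4 females of batch 2 alone 1.09 and -0.52, all called. Males alone were not tested. Without the block the SOX5 difference was -0.49 with edgeR adjusted p = 0.176, and TOX remained called at 1.35 (adjusted p = 0.00773).

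The fitted differences had these directions in each of the 6 memory subtypes that gave pairs. In CD11c+ MBC 1, TOX ran from 35.6 to 400 CPM in switched cells (median 200) and from 19.8 to 294 CPM in unswitched cells (median 88.9). SOX5 ran from 363 to 820 CPM (median 583) and from 518 to 1162 CPM (median 804). The ranges overlapped between animals, but within animals TOX was higher in 6 of 6 and SOX5 lower in 6 of 6. The log2 differences were 0.63 ± 0.11 (edgeR adjusted p = 0.000342) and -0.45 ± 0.07 (adjusted p = 3.89e-05), beside 0.740% of 6618 genes called, 0.317% higher and 0.423% lower.

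In CD11c+ MBC 2, TOX was 553, 72.1, 297, 171 and 310 CPM in switched cells of females 1 to 3 and males 1 and 2, and 339, 20.2, 132, 85.7 and 149 CPM in their unswitched cells. SOX5 was 1165, 561, 693, 781 and 792 CPM in switched and 1673, 908, 990, 937 and 1121 CPM in unswitched cells. Each of the 5 animals moved the same way for both genes, with TOX lowest in female 2. The log2 differences were 0.96 ± 0.11 for TOX (edgeR adjusted p = 2.17e-06) and -0.50 ± 0.06 for SOX5 (adjusted p = 8.49e-06), beside 1.50% of 6014 genes called, 0.615% higher and 0.881% lower. The difference between the CD11c+ subtypes in these class effects was tested as an interaction and called neither TOX (-0.33 ± 0.17, unadjusted p = 0.0532, edgeR adjusted p = 1.00) nor SOX5 (0.04 ± 0.10, edgeR adjusted p = 1.00), nor the other 3 factors, beside 0.0282% of 7090 genes.

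In C-MBC 1, where most cells of known class are switched, TOX was 361, 87.9, 273, 163 and 245 CPM in switched cells of females 1 to 3 and males 1 and 2. In unswitched cells it was 95.9, 17.05, 78.0, 11.2 and 54.0 CPM, lower in each animal. The log2 difference was 2.08 ± 0.19 (edgeR adjusted p = 2.18e-07; 1.27% of 4471 genes called, 0.716% higher and 0.559% lower), and SOX5 differed by -0.58 ± 0.15, lower in 4 of 5 animals (adjusted p = 0.0597). SOX5 there was called with no filter on low counts (-0.49), without female 1 (-0.75), without male 1 (-0.70) and without marker-bearing cells (-0.76). In M-MBC 1 TOX differed by 0.99 ± 0.24 (5 animals; edgeR adjusted p = 0.0113; 0.482% of 6225 genes called, 0.289% higher and 0.193% lower). This call was lost without female 1 (0.75) or male 2 (0.96), in DESeq2 (1.14), with no filter on low counts (0.92) and without marker-bearing cells (0.71). In M-MBC 2 the TOX difference was 2.74 ± 0.34 (3 animals; edgeR adjusted p = 3.34e-07; 0.259% of 5023 genes called, 0.119% higher and 0.139% lower), lost without female 1 (2.58). In C-MBC 2 edgeR called 0 of 3391 genes, and DESeq2 also 0, with 254 genes at an unadjusted edgeR p under 0.05. TOX differed there by 1.97 ± 0.48 (edgeR adjusted p = 0.243) in 3 of 3 animals, and was called with no filter on low counts (2.09). SOX5 differed by -0.45 ± 0.15 in M-MBC 1 (edgeR adjusted p = 0.269), by -0.46 ± 0.16 in M-MBC 2 (adjusted p = 0.507) and by -0.71 ± 0.48 in C-MBC 2 (adjusted p = 0.805). Without the animal as a block no member was called within any of these subtypes except TOX in M-MBC 2 (2.80, edgeR adjusted p = 0.0270).

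**Figure D3:**
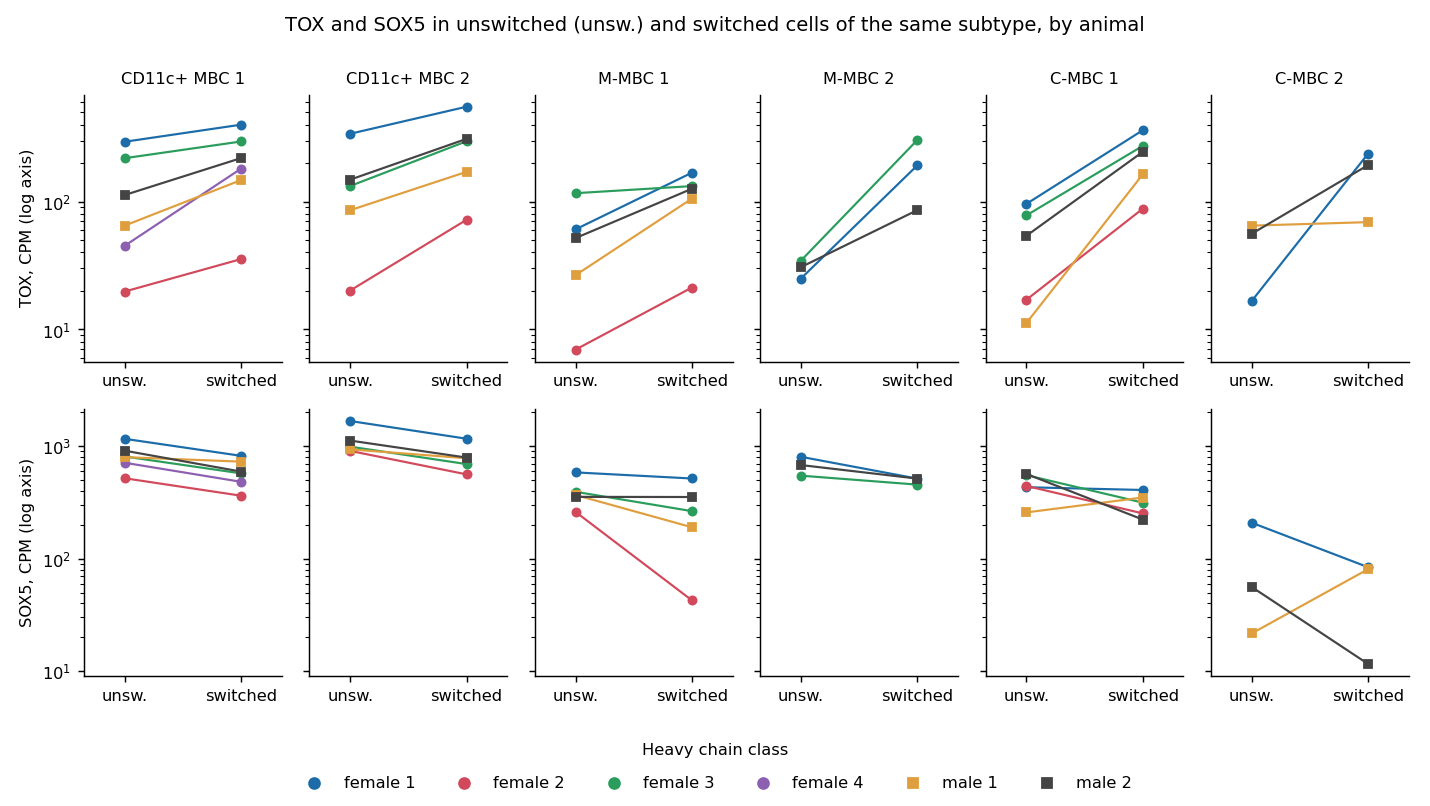
Lines join the unswitched and the switched cells of 1 animal in each of 6 memory subtypes; the y axis is CPM of TOX (top) and SOX5 (bottom) on a log scale. TOX rises along all 27 lines, and SOX5 falls along 25 of 27.

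**Figure D4:**
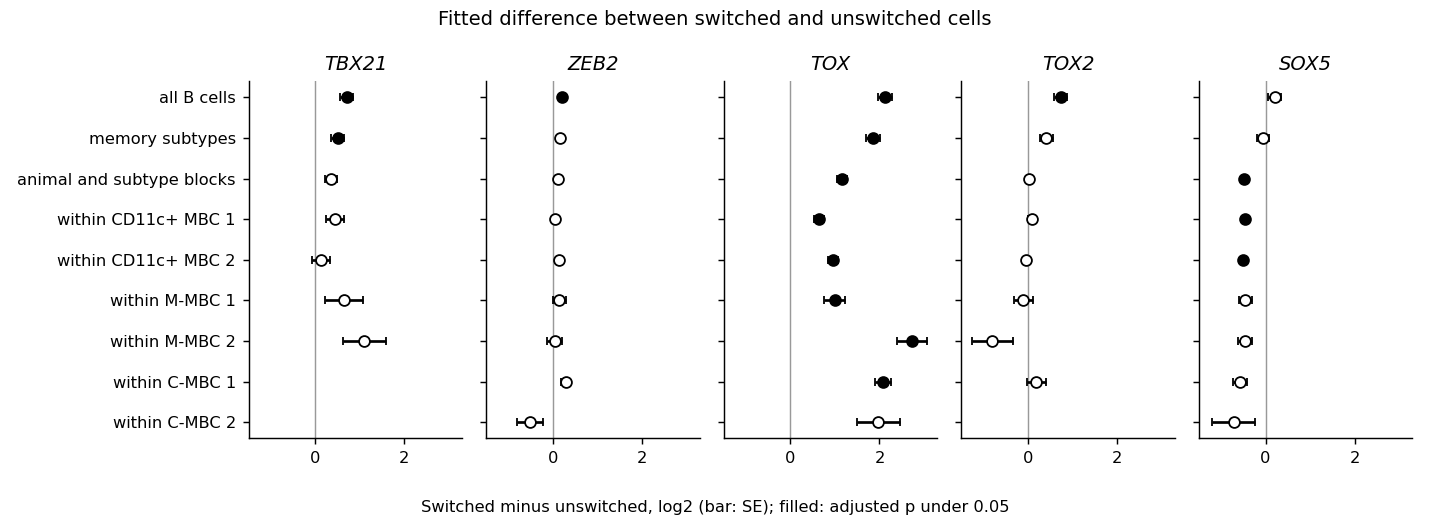
For each factor the x axis gives the fitted log2 difference of switched minus unswitched cells with its SE, and the rows the set of cells compared; filled points have an adjusted p under 0.05. TOX is right of 0 in every row, and SOX5 moves from 0.20 in all B cells to -0.49 once subtypes are matched.

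By single class, all 5 factors had their highest mean in IgG cells and all but TOX their lowest in IgA cells. TOX2 was 16.5, 67.7, 0, 16.9 and 7.83 CPM in IgA cells of females 1, 3 and 4 and males 1 and 2, and 218, 372, 187, 250 and 198 CPM in their IgG cells. No IgA value reached the IgG range. The IgA values rest on 24 UMIs of TOX2 in 145 cells, and 3 UMIs equal 9.91 (female 1) to 25.4 CPM (male 1) there. The log2 difference was -3.40 ± 0.27 (n = 5; edgeR adjusted p = 8.22e-09), and female 2, with 8 IgA cells, was left out. SOX5 (-1.84 ± 0.18, adjusted p = 4.79e-08; 138 ± 85.2 against 471 ± 148 CPM), ZEB2 (-1.28 ± 0.16, adjusted p = 2.26e-06; 195 ± 75.8 against 457 ± 93.3 CPM) and TOX (-1.10 ± 0.16, adjusted p = 2.87e-05; 123 ± 43.6 against 256 ± 101 CPM) were also lower in 5 of 5 animals by edgeR. TBX21 had 5 UMIs in 145 IgA cells (5.24 ± 4.84 CPM, 2 of 5 animals at 0, against 30.2 ± 15.2 CPM over 6 animals in IgG cells) and did not pass the filter on low counts. In this comparison 13.1% of 6559 genes were called, 5.09% higher and 7.96% lower. Of the genes known to be higher in atypical cells 0 of 21 measured were higher and 11 lower in IgA cells (median -0.70), and of those known to be lower 6 of 15 were higher and 1 lower (median 0.33), against a median of 0.00072 over all genes. Markers of other cell types had 1 of 4 T cell genes higher, 0 of 2 NK cell genes called, 1 of 1 monocyte and 1 of 1 dendritic cell genes lower and 1 of 3 platelet and red cell genes higher. Without marker-bearing cells TOX2, SOX5, ZEB2 and TOX kept their direction and calls. The part of dendritic cells, platelets and red cells in these values was not tested.

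IgA and IgG cells also differed in subtype: 58.8% of 153 IgA cells (53.1% to 66.7% over 5 animals) and 7.58% of 2217 IgG cells were C-MBC 2. Within C-MBC 2 alone TOX differed by -0.74 ± 0.21 (edgeR adjusted p = 0.0532) and ZEB2 by 0.14 ± 0.27 (adjusted p = 0.922), and the other 3 factors did not pass the filter. This comparison was added after the data had been seen, and called 50 of 2910 genes.

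Among unswitched cells TOX2 was higher in cells whose receptor transcript was IgD than in those with IgM, in 6 of 6 animals (168 ± 91.2 against 124 ± 60.1 CPM; log2 difference 0.43 ± 0.07, edgeR adjusted p = 0.000104). TOX differed by 0.63 ± 0.12 (75.0 ± 75.6 against 46.8 ± 37.6 CPM; edgeR adjusted p = 0.000382) but was higher in 4 of 6 animals only, and its call was lost without female 1 (0.40) and in DESeq2 (0.52). TBX21 (0.10 ± 0.16), ZEB2 (-0.08 ± 0.07) and SOX5 (-0.03 ± 0.07) were not called, beside 5.94% of 8735 genes, 2.34% higher and 3.61% lower. Without the animal as a block neither TOX2 (0.48) nor TOX (0.69) was called (edgeR adjusted p = 1.00). Of IgD cells 23.3% were CD11c+ MBC 1 and 31.5% M-MBC 1, against 16.2% and 18.9% of IgM cells. With animal and subtype pairs as blocks, a fit added after the data had been seen, TOX2 differed by 0.19 ± 0.08 (edgeR adjusted p = 0.429), and TOX did not pass the filter.

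**Figure D5:**
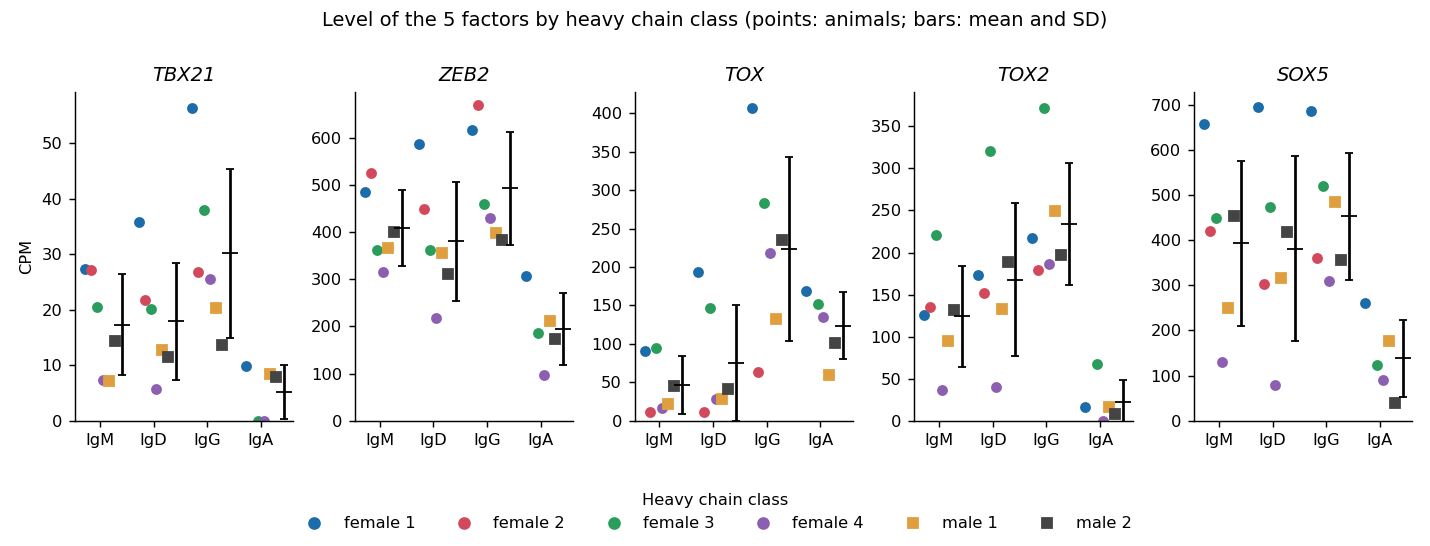
Each panel plots 1 factor, with the heavy chain class on the x axis and CPM in the summed B cells of an animal on the y axis; black bars give the mean and SD over animals. IgG has the highest mean in every panel. TOX2 in IgA cells, from 24 UMIs, lies at 67.7 CPM or lower while all IgG values are 179 CPM or higher.

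The light chain made no called difference. Between kappa and lambda cells the log2 differences of the 5 factors ran from -0.14 to -0.02 and none was called by edgeR, beside 0.0927% of 9705 genes. SOX5 (-0.09 ± 0.03, unadjusted p = 0.00328, edgeR adjusted p = 0.455) was lower in kappa cells of 5 of 6 animals. Males and females, which also differ in batch, were compared over all B cells without a block. TBX21 was 10.4 and 13.7 CPM in males and 38.9, 27.5, 26.5 and 13.8 CPM in females, with a log2 difference of -1.01 ± 0.36 (edgeR adjusted p = 0.215). TOX differed by -1.09 ± 0.63 (edgeR adjusted p = 0.396), TOX2 by -0.28 ± 0.41, ZEB2 by -0.13 ± 0.22 and SOX5 by -0.05 ± 0.42. None of the 5 was called, beside 0.340% of 11180 genes.

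The other genes of the pathway were read from 5 lists, whose counts stand beside 8.81% of all genes higher and 7.63% lower in the memory comparison, and 2.26% higher and 2.91% lower in the matched fit. Of 30 genes known to be higher in atypical cells, 25 were measured in the memory comparison, and 10 were higher and 5 lower in switched cells (median log2 difference 0.35, against -0.0039 over all genes). ITGAM, which encodes CD11b, rose by 1.94 ± 0.16 (29.3 ± 24.0 against 7.69 ± 6.81 CPM), DUSP4, a MAP kinase phosphatase, by 1.22 ± 0.14, and CD86, a costimulatory ligand, by 0.87 ± 0.12, each in 6 of 6 animals. Matched for subtype, 0 of 18 measured genes of this list were higher and 2 lower (median -0.07, against -0.00084 over all genes), the inhibitory receptor LILRB1 (-0.34 ± 0.10, edgeR adjusted p = 0.0339, lower in 14 of 27 pairs) and TFEC (-0.74 ± 0.21, adjusted p = 0.0189).

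Of 18 genes known to be lower in atypical cells, 16 were measured in the memory comparison, and 2 were higher and 6 lower in switched cells (median -0.20, beside 8.81% and 7.63% of all genes). BACH2, a repressor that holds B cells back from differentiation, fell by 1.06 ± 0.10 (172 ± 121 against 341 ± 190 CPM), the chromatin organizer SATB1 fell by 0.82 ± 0.11 and CD38 fell by 0.69 ± 0.10, all in 6 of 6 animals. Matched for subtype, 1 of 12 was higher and 4 were lower (median -0.06): CD69, an early activation marker, rose by 0.52 ± 0.09, and SATB1 (-0.50 ± 0.10), BACH2 (-0.42 ± 0.08) and the follicle homing receptor CXCR5 (-0.25 ± 0.05) fell, with edgeR adjusted p-values from 2.34e-05 to 0.000430.

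Inputs of T-bet induction are its cytokine and innate receptors. The list held 19 genes of cytokine receptors, JAK-STAT and Toll-like receptor signalling, together with NOTCH2, IRF1 and IRF5. Of these 16 were measured, and 2 were higher and 6 lower in switched memory cells (median -0.02, beside 8.81% and 7.63% of all genes). NOTCH2 fell by 0.86 ± 0.11, the interferon gamma receptor chain IFNGR2 fell by 0.73 ± 0.12, IL21R fell by 0.59 ± 0.12 and IRF1 fell by 0.32 ± 0.07, each in 6 of 6 animals. Matched for subtype, IFNGR2 fell by 0.67 ± 0.09 (25 of 27 pairs), the adaptor MYD88 rose by 0.40 ± 0.11, and the other 12 measured genes were not called (median -0.01).

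Of 17 relatives of the 5 factors, 8 were measured, and only ZEB1, the paralog of ZEB2, was called, falling by 0.32 ± 0.07 (105 ± 35.2 against 132 ± 50.1 CPM; 6 of 6 animals; edgeR adjusted p = 0.00649). SSRP1 (0.28 ± 0.11), HMGB1 (0.12 ± 0.05) and SOX4 (-0.51 ± 0.20) were not. The median of the list was -0.01, and matched for subtype 0 of 7 were called. Of 22 other B cell transcription factors, 21 were measured, and 6 were higher and 5 lower in switched memory cells (median 0.06, beside 8.81% and 7.63% of all genes). FOXP1 fell by 1.06 ± 0.07, PAX5, the B lineage factor, fell by 0.61 ± 0.06 and NFATC1 fell by 0.66 ± 0.08, while BHLHE41 rose by 1.24 ± 0.11, each in 6 of 6 animals. Matched for subtype, 1 of 16 was higher and 4 lower (median -0.10): FOXP1 fell by 0.46 ± 0.07, IRF4 fell by 0.43 ± 0.07 and NFATC1 fell by 0.33 ± 0.08, and KLF2 rose by 0.14 ± 0.04.

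Markers of other cell types were compared in the same fits. In the memory comparison 1 of 9 measured T cell markers was higher in switched cells (CD3G, 0.51 ± 0.12) and 3 were lower, CD2 (-0.85 ± 0.19), CD8A (-0.79 ± 0.18) and CD4 (-1.03 ± 0.25). Matched for subtype, the only T cell marker measured, CD3D, fell by 0.52 ± 0.16 (27.1 ± 26.5 against 46.4 ± 33.5 CPM over pairs); T cells also express TOX. None of the 5 NK cell markers measured in the memory comparison was called, and none was measured in the matched fit. Of the monocyte markers CST3 rose by 0.94 ± 0.22 and LYZ fell by 0.36 ± 0.12 (lower in 3 of 6 animals). The dendritic cell markers ZBTB46 (0.50 ± 0.18, adjusted p = 0.0683) and CD1C (0.02 ± 0.06) were not called by edgeR. Of 3 platelet and red cell genes PPBP fell by 0.30 ± 0.10. Of 6 B cell markers 5 were lower in switched memory cells, with CD79B falling by 1.09 ± 0.12 and BLNK falling by 0.89 ± 0.10. The part of these genes in the values of the 5 factors was not tested beyond the comparisons without marker-bearing cells given above.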

How the data were processed

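Expression data were raw UMI counts, deposited by the authors as 1 table for all cells, with a cell table that gave the library, the subtype, the UMI count and, in percent, the mitochondrial and ribosomal shares as the authors computed them. The submitters' processing notes name Seurat 5.0.1, R 4.3.1 and Cell Ranger 9.0.1. The build is not given in the sources used here. BCR files gave contigs per cell, per the file headers.

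The 5 genes, the gene lists and the comparisons were chosen with earlier results of these data known. Cells annotated as contamination were left out; no doublet caller was run here. Unnamed identifiers (5813, 14.9% of UMIs) and 23 immunoglobulin genes (0.186%) stayed out of library sizes and tests. Counts were summed per animal and class (10 cells or more; 10 to 3048 cells and 46623 to 17116478 UMIs per sum). CPM is scaled to the total of the 16748 genes kept. Sums were tested with edgeR 4.0.16 in R 4.3.3 (filterByExpr, TMM, quasi-likelihood F test, animal as block, Benjamini-Hochberg over all genes tested, threshold 0.05), after a check on simulated counts. Both classes of a pair come from the same animal; their deviations correlated at 0.521 to 0.815 over the 6 animals (all B cells) and at 0.158 or more in every other paired comparison. Memory subtypes are the 6 named MBC and M-MZL BC. From each list the text names up to 4 genes with the smallest p in the memory comparison and up to 4 called in the matched fit. Some genes that these rules name are not reported here. Thinning used 1 fixed seed, and log2 levels a pseudocount of 1. Alternatives were DESeq2 1.42.0, no filter on low counts, no block, immunoglobulin and unnamed identifiers kept, 1 animal left out, marker-bearing or antibody-secreting cells left out, batch 2 alone, and, added after seeing the data, classes compared within C-MBC 2 and with subtype terms. Sequences were not used here.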

Additional observations from a re-analysis of the deposited data

Results flagged for a closer look

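In 80 combinations of a factor with a subtype or class, 1 animal was compared with the rest of its group. The rule is set to flag about 5% of groups by chance if values are normally distributed. CPM values at or near 0 need not be, and a group with all but 1 animal at 0 is always flagged. The number flagged therefore has no chance share to be set against. In 10 of the 80 combinations the highest animal lay far above the others. Female 1 held 87.4 CPM of TBX21 in CD11c+ MBC 2 (others up to 41.5), 56.1 CPM of TBX21 in Naive B cells 2 (up to 20.5) and 764 CPM of ZEB2 in CD11c+ MBC 1 (up to 526). Female 2 held 28.5 CPM of TBX21 in M-MZL BC, with the other animals at 3.63 to 10.9. Female 3 held 67.7 CPM of TOX2 in IgA cells (others up to 16.9) and 372 CPM in IgG cells (up to 250). Male 1 held 9.42 CPM of TOX2 in Naive B cells 1 (others up to 3.34), and male 2 held 106 CPM of TOX2 in the cells annotated as contamination (up to 46.6). In Naive B cells 3, male 2 held 25.8 CPM of TBX21 from 1 UMI and female 3 held 21.5 CPM of TOX from 2 UMIs, with the other 3 animals at 0.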

How the results depend on the processing

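Of 698 alternative values for the 5 factors, 622 kept their direction and side of the threshold. Another 35 lost a call, 10 gained a call and 31 changed sign. Mean levels by subtype stayed within 1 SD in 270 of 270. With 1 animal left out this could not fail, because leaving out 1 animal cannot move such a mean by 1 SD. For those alternatives the count is no test of stability. For classes matched by subtype TOX remained called in every alternative. Without the replicate block SOX5 there was -0.49 and not called, and TOX2 was -0.00097. TOX2 in that fit was also below 0 without marker-bearing cells (-0.00062) and in batch 2 alone (-0.020), and ran from -0.017 to 0.079 with 1 animal left out.

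Without the replicate block the genes called numbered 104 (all B cells), 49 (memory), 14 (matched), 0 in CD11c+ MBC 1 and 2, M-MBC 1 and C-MBC 1, 1 (M-MBC 2), 263 (IgA), and 0 for IgD, light chains and the interaction. DESeq2 called 11 (CD11c+ MBC 1), 35 (CD11c+ MBC 2), 2 (M-MBC 1), 5 (M-MBC 2), 19 (C-MBC 1), 285 (IgD), 634 (sex) and 0 (light chains, interaction). Without a filter on low counts there were 143 (C-MBC 1), 33 (C-MBC 2), 36 (light chains), 67 (sex) and 5 (interaction). With immunoglobulin genes and unnamed identifiers kept there were 47 (M-MBC 1), 20 (M-MBC 2), 35 (C-MBC 1), 2 (C-MBC 2), 88 (light chains), 72 (sex) and 0 (interaction). Without marker-bearing cells there were 116 (matched), 27 (CD11c+ MBC 1), 14 (CD11c+ MBC 2), 6 (M-MBC 1), 23 (C-MBC 1), 365 (IgA), 244 (IgD), 3 (light chains) and 1 (interaction); M-MBC 2 and C-MBC 2 could not be fitted, with too few sums. The added fits called 50 genes for IgA within C-MBC 2, and with subtype blocks 27 for IgD and 0 for light chains.

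With 1 animal left out the counts ran from 1569 to 2327 (all B cells; lowest without female 3), 1063 to 1567 (memory), 158 to 264 (matched; lowest without female 3), 17 to 50 (CD11c+ MBC 1; lowest without female 2), 37 to 71 (CD11c+ MBC 2; lowest without female 1), 12 to 27 (M-MBC 1), 1 to 17 (M-MBC 2; lowest without female 1), 31 to 47 (C-MBC 1), 0 to 2 (C-MBC 2), 586 to 739 (IgA), 343 to 558 (IgD), 2 to 14 (light chains), 7 to 136 (sex) and 0 to 3 (interaction).

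The other sign changes were in uncalled values, except ZEB2 in IgA cells (0.14 within C-MBC 2). Without marker-bearing cells they were TOX2 in CD11c+ MBC 1 (-0.014), ZEB2 in M-MBC 1 (-0.0057), ZEB2 and SOX5 for IgD (0.022 and 0.072), ZEB2 and TOX for light chains (0.0085 and 0.063), TOX2 and SOX5 for sex (0.0078 and 0.11), and TBX21 and SOX5 for the interaction (-0.00083 and -0.018). ZEB2 in M-MBC 2 was -0.077 unfiltered, and TOX and TOX2 for light chains were 0.039 and 0.0094 with subtype blocks. With 1 animal left out SOX5 in memory subtypes ran from -0.19 to 0.072, TOX2 in CD11c+ MBC 2 from -0.067 to 0.034, TOX2 in M-MBC 1 from -0.21 to 0.035, and ZEB2 in M-MBC 2 from -0.22 to 0.18. For IgD, TBX21 ran from -0.020 to 0.24 and SOX5 from -0.12 to 0.087. For light chains ZEB2 ran from -0.034 to 0.020, and for sex TOX2 from -0.49 to 0.12 and SOX5 from -0.36 to 0.20. The cause of these changes was not tested. TBX21, with 1641 UMIs in all, is limited most by depth.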
